A study of Mus musculus with 20 samples.

Results

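Fstl1 and 9 other genes that encode matricellular or matrix-building proteins were examined in the left ventricle of mice fed 4 diets. The members were taken by symbol from the 15956 genes of the count table, and all 10 were listed: Fstl1, Postn, Sparc, Thbs1, Tnc, Spp1, Fn1, Fbn1, Lox, and Loxl1. The list was built around Fstl1, which was selected on its normalized counts in HF against NP, so the members' values of HF against NP are given as a description without a test. The remaining comparisons involve other mice in part or in full, and each says which mice it shares.

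Male mice received a normal protein diet (NP), a low protein diet (LP), a high-fat diet with normal protein (HF), or a high-fat diet with low protein (HF + LP), and libraries of 5 mice per diet were analysed. The study states a larger group size for its heat maps. Casein was the protein source of every diet, and the labels give an age of 18 months for all 20 mice, while the study's methods place collection at a younger age. The strain is not given in the sources used here. By the labels, HF mice weighed 58.9 ± 1.76 g, HF + LP mice 48.6 ± 5.93 g, NP mice 43.0 ± 7.82 g, and LP mice 32.6 ± 2.69 g (mean ± SD, n = 5). RNA came from whole left ventricular tissue, so fewer cells of a type and less RNA per cell cannot be told apart. Mice are named by their group and the animal number of the labels.

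Matricellular proteins are secreted into the extracellular matrix, where they regulate how cells bind and sense it rather than serving mainly as structural fibres. In the heart they are made largely by fibroblasts and are known for rising after injury and pressure load. The matrix itself is built from scaffolds such as fibronectin and fibrillin microfibrils, and lysyl oxidases crosslink its collagen and elastin. FSTL1 is a secreted glycoprotein of the SPARC family with a follistatin-like domain, and it can bind BMP4, a ligand of the TGF-beta superfamily.

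Upstream sequences of Fstl1 and Postn are shown because these members had the smallest p-values of the set in HF + LP against HF. Each is taken from the 250 bases before a RefSeq transcript start on GRCm38.p6, up to the start of the gene in GENCODE M21, written 5′ to 3′ on the plus strand. Capitals mark TATAAA, the core of the TATA box. The Fstl1 stretch is chr16:37776805-37776872 and the Postn stretch chr3:54360857-54361106.
Fstl1: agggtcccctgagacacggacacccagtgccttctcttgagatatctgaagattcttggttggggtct
Postn: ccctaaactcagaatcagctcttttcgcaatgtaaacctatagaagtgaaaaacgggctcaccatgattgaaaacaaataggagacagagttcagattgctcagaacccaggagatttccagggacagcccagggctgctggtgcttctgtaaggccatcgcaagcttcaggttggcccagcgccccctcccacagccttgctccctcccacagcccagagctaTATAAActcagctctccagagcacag
The GENCODE gene Fstl1 starts inside its window, so 182 of the 250 bases were left out above. Over the whole window Fstl1 was GC-rich, at 68.0% with 16 CpG dinucleotides, and contained no TATAAA. The Postn stretch had a GC content of 52.0% with 4 CpG dinucleotides and held TATAAA 26 bases before the start, and 7.59% of 32851 RefSeq promoters of the same length held it anywhere on the gene's strand. RefSeq gave a second Postn start, whose window of 250 bases (chr3:54359017-54359266) had a GC content of 40.4% with 3 CpG dinucleotides and no TATAAA. The stretch shown is the one next to the start of the GENCODE gene, and the counts cannot tell which start was used. The Sparc window, of which no sequence is shown because it lies inside the GENCODE gene Sparc, had a GC content of 54.0% and 4 CpG dinucleotides, against a median GC content of 52.4% over all promoters. None of these 4 windows held an AP-1 motif (TGANTCA, in 6.75% of promoters), a TEAD motif (GGAATG, in 12.6%), or a CCAAT box (CCAAT, in 33.8%) on either strand. Promoter sequences were matched for 6 of the 10 members, and a match or its absence describes only these letters in this window.

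The genes lie on separate chromosomes except for Fbn1 and Thbs1. In GENCODE release M21 on GRCm38, Fstl1 (ENSMUSG00000022816) spans chr16:37776873-37836514, Postn (ENSMUSG00000027750) chr3:54361109-54391037, and Thbs1 (ENSMUSG00000040152) chr2:118111876-118127133, all on the plus strand. Sparc (ENSMUSG00000018593) spans chr11:55394500-55423183, Fn1 (ENSMUSG00000026193) chr1:71585520-71653200, Fbn1 (ENSMUSG00000027204) chr2:125300594-125507993, and Loxl1 (ENSMUSG00000032334) chr9:58287738-58313186, all on the minus strand. Tnc (ENSMUSG00000028364) spans chr4:63959785-64047015 on the minus strand and Spp1 (ENSMUSG00000029304) chr5:104435118-104441050 on the plus strand. Fbn1 overlaps Gm9913 on the opposite strand, which the table also lists, and how reads of the pair were assigned is not given in the sources used here.

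Total counts per mouse were between 12559607 and 23331907, and reads from the mitochondrial genome made up 35.37% to 47.15% of them. LP mouse 13 stood apart, with a median correlation of 0.908 with the other LP mice, against 0.944 to 0.979 for the other 19 mice within their groups. Cardiomyocyte markers were present in every library. Atrial markers varied widely, from a summed normalized count of 973 in HF + LP mouse 5 to 259500 in LP mouse 13, and 6 mice exceeded 50000 (HF mice 1 and 3, LP mice 13 and 15, HF + LP mouse 3, and NP mouse 5).

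Levels are given as normalized counts, which are reads scaled by TMM to a common library size. Libraries were primed on the poly(A) tail, so longer transcripts do not gather more reads by their length. How reads were assigned to genes is not given in the sources used here, so the order between genes is only approximate. Sparc, which encodes a collagen-binding protein that assists procollagen processing, had by far the most reads, with a mean normalized count of 5396 over the 20 mice. Fstl1 followed at 993 and Loxl1 at 568. Fbn1 (312), Fn1 (311), and Postn (255) were in the middle of the set. Lox (45.0) and Thbs1 (22.7) lay under the mean of 50 that a call required, so neither could be called in any comparison. Tnc and Spp1 did not pass the filter on low counts, which left 8 of the 10 members tested.

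**Figure D1:**
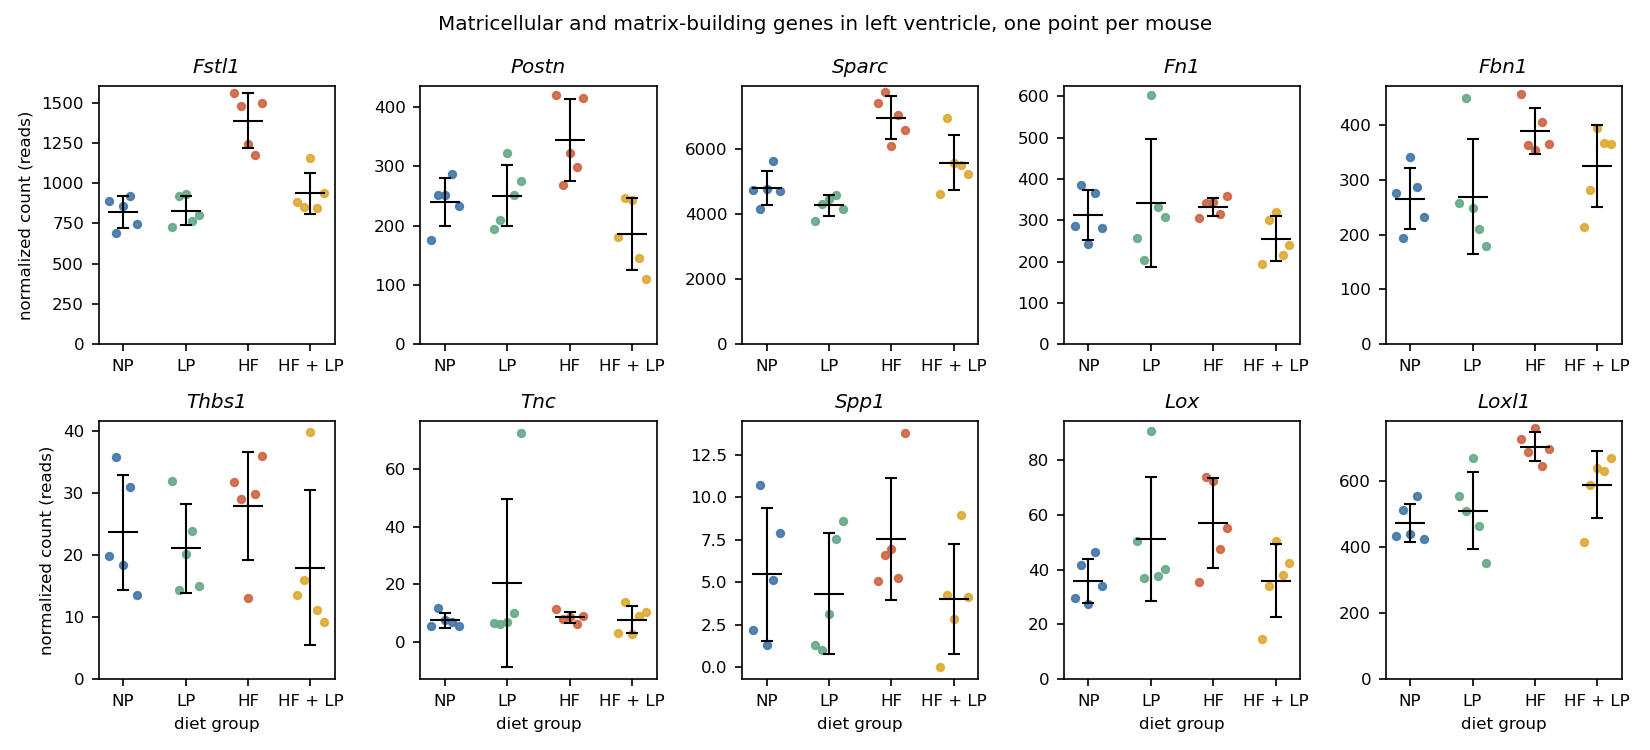
Normalized count (reads, linear axis) of each of the 10 members by diet group. Each point is 1 mouse (n = 5 per group), horizontal bars are means, and error bars are SD. In the Fstl1 panel all 5 HF mice lie above every mouse of the other 3 groups, while the Tnc and Spp1 panels hold a few reads per mouse apart from LP mouse 20 for Tnc.

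Fstl1 was highest in HF and close together in the other 3 groups. Its normalized counts in HF mice 1 to 5 were 1557, 1476, 1240, 1173, and 1497. In HF + LP mice 1 to 5 they were 884, 852, 1155, 846, and 942. Each HF mouse exceeded each HF + LP mouse, although HF mouse 4 and HF + LP mouse 3 were nearly level. LP mice 2, 5, 13, 15, and 20 had 730, 917, 932, 765, and 801, and NP mice 3, 4, 5, 6, and 8 had 889, 687, 856, 921, and 744. From lowest to highest, the group means were NP 819.7 ± 99.7, LP 829 ± 90.7, HF + LP 936 ± 129, and HF 1389 ± 171 (SD, n = 5). Of the neighbours in this order, HF + LP and HF did not overlap, whereas NP and LP, and LP and HF + LP, did.

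Postn encodes periostin, which binds integrins and collagen and marks activated fibroblasts. HF mice 1 to 5 had normalized counts of 420, 268, 321, 299, and 414, and HF + LP mice 1 to 5 had 181, 247, 243, 146, and 109. The lowest HF mouse was above the highest HF + LP mouse. NP mice lay between 175 and 287 and LP mice between 194 and 321, so both overlapped the high-fat groups. Means increased in the order HF + LP (185 ± 60.3), NP (239.6 ± 41.0), LP (251 ± 51.3), and HF (344 ± 68.9), and all neighbours in this order overlapped.

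For Sparc, both high-fat groups had higher means than both other groups. HF mice 1 to 5 had normalized counts of 7394, 7729, 6072, 7024, and 6563, and HF + LP mice 1 to 5 had 4614, 6937, 5574, 5506, and 5226. LP mice 2, 5, 13, 15, and 20 had 3785, 4306, 4454, 4588, and 4162, and NP mice 3, 4, 5, 6, and 8 had 4731, 4166, 4769, 5623, and 4689. Every HF + LP mouse exceeded every LP mouse, with 4614 against 4588 at the closest point, while HF + LP overlapped both HF and NP.

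The matrix scaffold genes differed from each other. Fn1, which encodes fibronectin, had nearly the same mean in NP (313 ± 60.6), HF (333 ± 21.9), and LP (342 ± 155) and a lower one in HF + LP (255 ± 54.6). The LP spread came mainly from LP mouse 13 at 604, as the other LP mice lay between 204 and 333. Fbn1 encodes fibrillin-1, the main protein of microfibrils, which also store latent TGF-beta. Its means were 266 ± 56.1 in NP, 269 ± 105 in LP, 325 ± 74.6 in HF + LP, and 389 ± 42.6 in HF, and the 5 HF mice (355 to 456) lay above all 5 NP mice (193 to 341).

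Of the crosslinking enzymes, Loxl1, a lysyl oxidase needed for elastic fibre upkeep, had means of 472 ± 57.8 in NP, 509 ± 117 in LP, 587 ± 101 in HF + LP, and 703 ± 43.0 in HF. The HF mice (646 to 761) did not overlap the NP mice (423 to 554). Lox, which crosslinks collagen and elastin, was scarcer, at 35.9 ± 8.03 in NP, 35.9 ± 13.4 in HF + LP, 51.2 ± 22.7 in LP, and 56.9 ± 16.4 in HF. All 4 groups overlapped for Lox, and LP mouse 13 at 90.6 was the highest of the 20 mice.

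Thbs1, Tnc, and Spp1 had few reads in these ventricles. Thbs1 encodes thrombospondin-1, which can activate latent TGF-beta, and its means were 18.0 ± 12.5 in HF + LP, 21.1 ± 7.21 in LP, 23.7 ± 9.30 in NP, and 28.0 ± 8.75 in HF, with all groups overlapping. Tnc encodes tenascin-C, which is scarce in the healthy adult heart and appears after injury. Its normalized count was 13.9 or less in 19 mice and 72.5 in LP mouse 20, where 101 raw reads were counted. Spp1 encodes osteopontin, made by macrophages among other cells, and its raw counts ran from 0 in HF + LP mouse 1 to 18 in HF mouse 5. In the fit without the filter on low counts, over 15956 genes, Tnc had a log2 fold change of -1.41 ± 0.61 in HF + LP against LP (edgeR adjusted p = 0.268) and 1.46 ± 0.62 in LP against NP (adjusted p = 0.561), with LP mouse 20 included. In HF + LP against HF, Tnc had -0.15 ± 0.65 and Spp1 -0.93 ± 0.64 (adjusted p = 0.999 for both).

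In the comparison of HF with NP, from which Fstl1 was chosen, all 8 members tested had log2 fold changes above 0, as did 49.8% of all genes, with a median of 0.54 beside -0.001 over the 13991 genes tested. The log2 fold changes were 0.76 ± 0.12 for Fstl1, 0.58 ± 0.15 for Loxl1, 0.55 ± 0.21 for Fbn1, 0.54 ± 0.11 for Sparc, and 0.52 ± 0.20 for Postn (± SE). Lox had 0.66 ± 0.30, Thbs1 0.23 ± 0.38, and Fn1 0.09 ± 0.22. Groups did not overlap for 4 of the 8 (Fstl1, Sparc, Fbn1, and Loxl1), where 2.07% of all genes were higher and 3.6% lower without overlap. Over all genes, 0.264% were called in this comparison. Nothing is read from these counts, since the contrast served to choose the set.

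The comparison of HF + LP with LP asks what high fat goes with when protein is low, and it shares no mouse with HF or NP. No member was called, against 0.1% of all genes (14 genes), and 4 members were above 0 and 4 below 0 in log2 fold change, where 45.8% of all genes were above 0. Their median was -0.01, beside -0.03 over all genes. At an unadjusted p under 0.05, 1 member was higher (Sparc) and 1 lower (Postn), where 6.26% of all genes were higher and 9.66% lower.

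Sparc had the smallest p of the members, with 1.31-fold the LP level in HF + LP (log2 fold change 0.39 ± 0.11, SE, edgeR adjusted p = 0.111). With DESeq2 the Sparc adjusted p was 0.0231, which did not pass the threshold of 0.01 for a call. The Sparc groups did not overlap, and it was the only such member, where 0.915% of all genes were higher and 0.951% lower without overlap. Fstl1 in HF + LP was 1.13-fold its LP level (log2 0.17 ± 0.12, adjusted p = 0.476), with a 95% interval of the log2 fold change from -0.07 to 0.42, and 0.10 without HF + LP mouse 3. Postn pointed the other way, with a log2 fold change of -0.44 ± 0.21 (adjusted p = 0.303). The remaining log2 fold changes were 0.27 for Fbn1, 0.21 for Loxl1, -0.20 for Thbs1, -0.43 for Fn1, and -0.52 for Lox, with adjusted p from 0.349 to 0.841. Single mice moved these values by over 1.5 times. Without LP mouse 13, Fn1 had -0.11, Lox -0.20, and Loxl1 0.32. Fbn1 had 0.54 without LP mouse 5 and 0.14 without LP mouse 20, which also took Loxl1 to 0.08. With each mouse left out, Thbs1 ranged from -0.72 without HF + LP mouse 3 to -0.01 without LP mouse 2.

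The comparison of HF + LP with HF asks what low protein goes with under high fat, and it uses the same HF mice as the comparison that chose Fstl1, a choice for high values in HF that itself favours a negative value here. All 8 members had negative log2 fold changes, where 53.7% of all genes were above 0, with a median of -0.48 beside 0.02 over all genes. With edgeR no member and no gene of the 13991 was called (0%). At an unadjusted p under 0.05, 4 members were lower (Fstl1, Postn, Sparc, and Lox) and none higher, where 2.43% of all genes were lower and 2.41% higher. Groups did not overlap for 2 members, Fstl1 and Postn, where 0.636% of all genes were lower and 0.543% higher without overlap.

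Fstl1 in HF + LP was 0.674-fold its HF level (log2 fold change -0.57 ± 0.12, edgeR adjusted p = 0.134) and ranked 8 of all genes by p. DESeq2, the program named by the study, gave a log2 fold change of -0.59 with an adjusted p of 0.00168 for the same counts, which passed the threshold, and called 16 genes in all. Because Fstl1 was chosen for high values in these HF mice, its rank and p-values here are not an independent test. Postn had the larger decrease, at 0.538-fold (log2 -0.89 ± 0.21, adjusted p = 0.217 with edgeR and 0.0125 with DESeq2). For Sparc the log2 fold change was -0.32 ± 0.11 (edgeR adjusted p = 0.580). Lox (-0.66 ± 0.30), Thbs1 (-0.62 ± 0.38), Fn1 (-0.39 ± 0.22), Loxl1 (-0.26 ± 0.15), and Fbn1 (-0.26 ± 0.21) had adjusted p of 0.974 or above. Without HF + LP mouse 1 the values of Fbn1 and Loxl1 were -0.14 and -0.16, and without HF + LP mouse 3 that of Thbs1 was -1.18.

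The comparison of LP with NP asks the same of low protein without high fat, and it uses the NP mice of the comparison that chose Fstl1. No member was called and none had an unadjusted p under 0.05, while 0% of all genes were called, and 5.02% were higher and 2.21% lower at that p. Groups overlapped for all 8 members, where 0.443% of all genes were higher and 0.343% lower without overlap. In log2 fold change 6 of the 8 were above 0, as were 54.6% of all genes. Fstl1 had a log2 fold change of 0.02 ± 0.12, with a 95% interval from -0.23 to 0.26. Postn had 0.07 ± 0.20 and Sparc -0.17 ± 0.11. The largest value was that of Lox, at 0.52 ± 0.30 (edgeR adjusted p = 0.782), which was 0.19 without LP mouse 13. Fstl1 lay between -0.04 and 0.06 and Postn between -0.05 and 0.14 with each mouse left out, and Sparc had -0.11 without NP mouse 6.

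**Figure D2:**
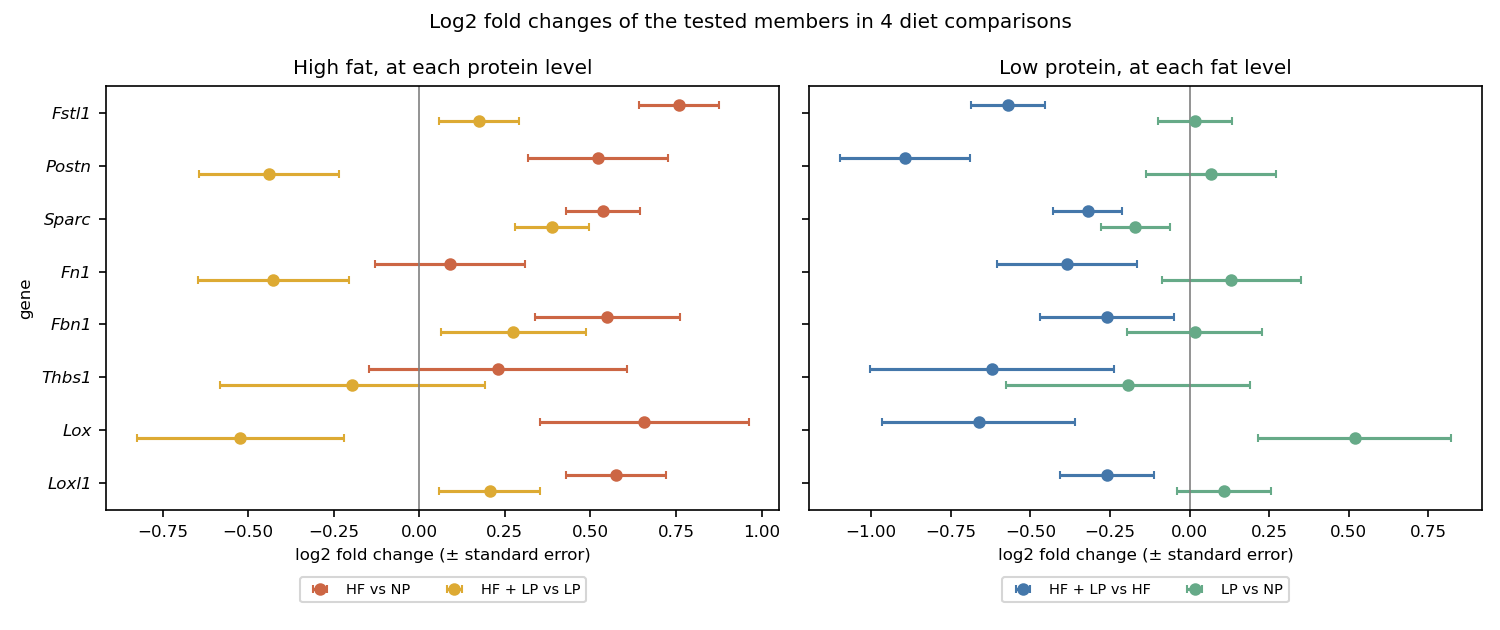
Log2 fold change of the 8 tested members, with bars of ± 1 standard error from the edgeR fit over all 20 mice. The left panel sets HF against NP beside HF + LP against LP, and the right panel HF + LP against HF beside LP against NP. All points of HF + LP against HF are negative, while Fstl1 lies at 0.76 under normal protein and 0.17 under low protein in the left panel.

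The interaction of fat and protein is the fat difference under low protein minus that under normal protein. It contains the difference of HF and NP on which Fstl1 was selected, which favours a negative value, so the members' values are a description without a test. All 8 were negative, where 49% of all genes were above 0, with a median of -0.47 beside -0.006 over all genes, of which 0% were called. The interaction was -0.59 ± 0.17 for Fstl1, -0.96 ± 0.29 for Postn, -1.18 ± 0.43 for Lox, and -0.15 ± 0.15 for Sparc (log2, ± SE).

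The other genes of the pathway were read from 5 lists, and none of their genes was called in any comparison. Among 19 tested matricellular and SPARC-family genes, 1 was higher and 4 lower at an unadjusted p under 0.05 with HF + LP against LP, beside 6.26% and 9.66% of all genes. The smallest p-values were those of Spock2 (log2 fold change -1.64, edgeR adjusted p = 0.129), Thbs3 (-0.65, adjusted p = 0.183), Tnxb (-0.41, adjusted p = 0.253), and Smoc1 (-1.12, adjusted p = 0.297). LP mouse 13 carried much of the Spock2 and Smoc1 differences. Without LP mouse 13, Spock2 had -0.69 and Smoc1 -0.23, and without LP mouse 15 Thbs3 had -0.43. Tnxb lay between -0.519 and -0.315 with each mouse left out. Spock2 and Smoc1 belong to the same family as Sparc, and Tnxb is a tenascin. In HF + LP against HF the list had a median log2 fold change of -0.33, with 0 higher and 3 lower at that p, beside 2.41% and 2.43% of all genes, and all 3 were thrombospondins (Thbs2, Thbs3, and Thbs4). Thbs2 and Thbs4 were named after their values were seen.

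Of 18 genes of microfibrils, elastic fibres, and fibulins, HF + LP against LP gave 3 lower and 0 higher at that unadjusted p, beside 9.66% and 6.26% of all genes. Ltbp2, Mfap4, Ltbp4, and Ltbp1 had log2 fold changes of -1.08, -0.85, -0.40, and -0.38, with edgeR adjusted p from 0.115 to 0.365. Without LP mouse 13, Ltbp4 had -0.17 and Ltbp1 -0.23, and without HF + LP mouse 1 Ltbp1 had -0.58. The LTBP proteins hold latent TGF-beta in the matrix, and MFAP4 is a microfibril-associated protein. In HF + LP against HF, 5 of the 18 were lower and 0 higher at that p, beside 2.43% of all genes that were lower. They were Mfap5 (-0.68), Mfap4 (-1.13), Emilin1 (-0.43), Adamtsl2 (-0.70), and Ltbp2 (-0.86), with edgeR adjusted p from 0.324 to 0.655. Mfap5, Emilin1, and Adamtsl2 were named after their values were seen.

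Of 15 tested crosslinking and modifying enzymes, P4ha1, a subunit of the collagen prolyl hydroxylase, had normalized counts of 271 ± 34.0 in LP and 380.3 ± 51.7 in HF + LP (log2 fold change 0.49 ± 0.12, edgeR adjusted p = 0.0716). Loxl3 (-0.63), Loxl2 (0.52), and P4ha2 (0.19) followed, with adjusted p from 0.244 to 0.4997. Without LP mouse 13, Loxl3 had -0.31 and P4ha2 0.09, and without LP mouse 5 P4ha2 had 0.29. Among 19 tested receptors, Cd36, a fatty acid carrier and thrombospondin receptor, was 7147 ± 1391 in LP and 10430 ± 203 in HF + LP (log2 fold change 0.55 ± 0.11, adjusted p = 0.0226). This was the only gene of the 5 lists with an adjusted p under 0.05 in that comparison, where 0.379% of all genes had one. The integrin subunits Itga4 (-1.05), Itga8 (-1.80), and Itga5 (-0.46) had adjusted p from 0.190 to 0.320. The highest normalized count in LP was 169 for Itga8 and 161 for Itga4, in different mice, beside LP means of 44.7 and 61.6. Itga8 had -0.05 without LP mouse 13 and Itga4 -0.30 without LP mouse 20. Of 23 tested TGF-beta and BMP genes, Tgfb1 (-0.49), Bmp4 (-0.89), and Smad6 (-0.61) had adjusted p from 0.258 to 0.273. Without LP mouse 13 Smad6 had -0.18, and without LP mouse 15 Tgfb1 had -0.31. In HF + LP against HF this list had a median of 0.005 and no gene at an unadjusted p under 0.05.

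In HF against NP, the contrast that chose Fstl1, 3 genes of the lists had an adjusted p under 0.05, where 1.37% of all genes had one. They were 1 of 19 matricellular genes, 1 of 15 crosslinking and modifying enzymes, and 1 of 19 receptors. None of 18 microfibril and elastic fibre genes or 23 TGF-beta and BMP genes had one. The lists were chosen with earlier results of these data known, so these values are a description. Cd44, the hyaluronan receptor, which also binds osteopontin, was named after its values were seen. Its normalized count averaged 89.4 ± 11.7 for NP, 162 ± 23.6 for HF, 128 ± 24.8 for LP, and 136 ± 32.6 for HF + LP (log2 fold change 0.86, edgeR adjusted p = 0.0140). Tnxb, which encodes tenascin-X, went the other way, from 79.1 ± 6.46 in NP to 48.7 ± 9.09 in HF (-0.70, adjusted p = 0.0467). P4ha1 had a log2 fold change of 0.50 (adjusted p = 0.0364).

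The summed markers of fibroblasts and of macrophages were, like Fstl1, highest on average in HF. The 15 fibroblast markers summed to normalized counts of 30140 to 38550 in NP, 27220 to 39780 in LP, 31910 to 43810 in HF, and 29010 to 37350 in HF + LP. Of these 15, 13 were higher in HF than in NP (median log2 fold change 0.20) and 13 lower in HF + LP than in HF (-0.30). The 12 macrophage markers summed to 5823 to 7724 in NP, 4294 to 10410 in LP, 7703 to 10070 in HF, and 5811 to 8047 in HF + LP. All 12 were higher in HF than in NP (0.43) and lower in HF + LP than in HF (-0.37). The fibroblast median in HF + LP against HF was -0.20 without HF mouse 1, and in HF against NP it was 0.04 without the 6 mice with high atrial markers. The fibroblast list includes Mfap4, given above. None of either list was called, no listed marker of these cells was at 0 in any mouse, and their part in the Fstl1 and Postn differences was not tested. Other lists differed in the same comparisons. The 5 atrial markers changed direction with the mice left out. Their median sum was 3237 in HF and 2466 in HF + LP, below 20860 in NP and 28090 in LP, while the highest HF mouse had 204500. The fitted median log2 fold change was 1.29 in HF against NP and -1.42 in HF + LP against HF. Without HF mouse 1 these were -0.02 and -0.19, and without the 6 mice with a sum over 50000 they were -4.54 and 2.68. Of the cardiomyocyte markers, 9 of 10 were lower in HF than in NP (-0.16) and 8 of 10 higher in HF + LP than in HF (0.17). The 5 RNAs retained in the nucleus were all lower in HF than in NP (-0.73, 1 called) and all higher in HF + LP than in HF (0.40, 0 called). The nuclear RNA sums were 31780 to 104100 in NP, 20760 to 55230 in HF, and 23650 to 75590 in HF + LP. The mitochondrial share of reads was 38.7 ± 0.751% in HF, 40.3 ± 3.94% in LP, 43.2 ± 2.48% in NP, and 43.3 ± 3.37% in HF + LP (SD, n = 5). Of 10 endothelial markers, 9 were higher in HF than in NP (0.20), and of 10 smooth muscle and pericyte markers 9 were lower (-0.49). These medians were -0.04 and 0.08 in HF + LP against HF. All 7 epicardial markers tested were higher in HF + LP than in HF (0.42), but the median was -0.05 without HF + LP mouse 3.

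Adipocyte markers were likewise high in single mice. Their sums had a median of 16.1 in HF (8.80 to 1161) and 17.7 in HF + LP (12.3 to 191), below 157.5 in NP (23.6 to 821) and 126 in LP (80.0 to 5159), and 4 of the 6 were at 0 in at least 1 HF + LP mouse. The fitted median log2 fold change in HF + LP against HF was -1.88, and 1.35 without HF mouse 3. In HF against NP it was -0.35, with -3.58 without HF mouse 3 and 0.45 without NP mouse 6. All 6 were lower in HF + LP than in LP (-4.73, and -3.58 without LP mouse 13), and in LP against NP all 6 were higher (2.28, and 1.26 without that mouse).

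The other lists also differed in the comparisons with LP. The atrial median was -1.64 in HF + LP against LP and 1.40 in LP against NP, and without LP mouse 13 it was -0.19 and -0.03. All 5 nuclear RNAs were lower in HF + LP than in LP (-0.54, 1 called), with -0.17 without LP mouse 20. Of 10 cardiomyocyte markers, 8 were higher in HF + LP than in LP (0.14, and 0.08 to 0.23 with 1 mouse left out), and all 10 were lower in LP than in NP (-0.21, and -0.13 without LP mouse 13). All 4 Schwann cell markers tested were lower in HF + LP than in LP (-0.66) and higher in LP than in NP (0.52). Without LP mouse 13 these were -0.36 and 0.21. In HF + LP against LP, all 6 valve markers tested (-0.38) and 7 of 10 smooth muscle and pericyte markers (-0.37) were lower. In LP against NP, 6 of 7 epicardial markers (0.68) and 11 of 12 macrophage markers (0.11) were higher, with 0.19 and -0.05 without LP mouse 13. The part of these measures in the members' differences was not tested, apart from the atrial alternative that follows. The list of 8 activated fibroblast markers had a median of -0.31 in HF against NP and -0.19 in HF + LP against HF, with 3 and 2 of 8 higher. It shares Acta2, Tagln, and Cnn1 with the smooth muscle and pericyte list. Leaving out the 6 mice with high atrial markers, an alternative chosen after seeing the data, gave a Fstl1 log2 fold change of -0.66 in HF + LP against HF (edgeR adjusted p = 0.0668) and took Thbs1 there to -1.34. In HF + LP against LP it gave 0.09 for Fstl1, -0.12 for Fn1, 0.03 for Fbn1, and -0.68 for Thbs1. In LP against NP it gave -0.35 for Fn1, 0.27 for Fbn1, -0.05 for Postn, -0.02 for Loxl1, 0.16 for Lox, and -0.32 for Thbs1.

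**Figure D3:**
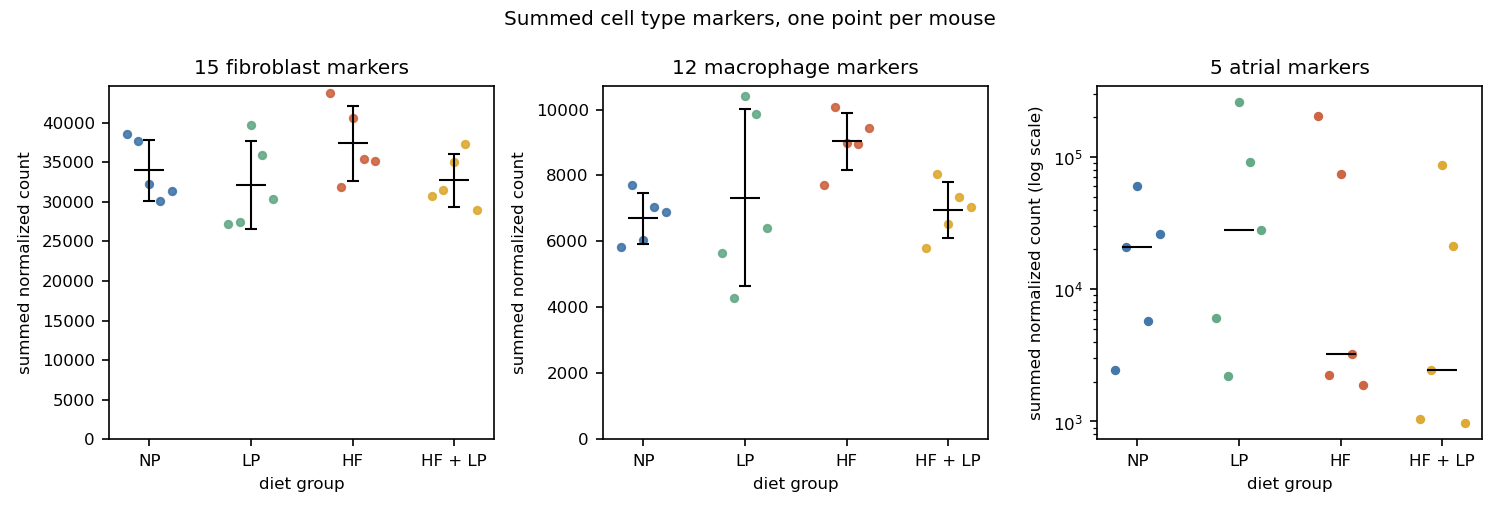
Summed normalized counts of fibroblast, macrophage, and atrial markers, 1 point per mouse. Bars are means with SD on linear axes for fibroblast and macrophage markers, and medians on a log axis for atrial markers. The macrophage sum was 9033 ± 871 in HF and 6953 ± 844 in HF + LP, and atrial markers ranged from 973 to 259500.

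Fstl1 varied little between mice on 1 diet, with a pooled coefficient of variation of 12.3% against a median of 17.4% over 10159 genes with a mean over 50. Sparc had 11.1%, Loxl1 15.9%, Postn 23.3%, Fbn1 25.6%, and Fn1 27.1%. Over the 20 mice, the genes most like Fstl1 in log2 CPM were Lpar1 (Pearson's r = 0.892, Spearman's rho = 0.865), Ccl6 (r = 0.826, rho = 0.805), Sparc (r = 0.811, rho = 0.744), Fbln2 (r = 0.792, rho = 0.750), and Fxyd5 (r = 0.784, rho = 0.735). These correlations include the diet differences, and the genes of a mouse share its library. After the diet means were subtracted, the most similar genes were Tal1 (r = 0.762, rho = 0.762), Pnmal2 (r = 0.753, rho = 0.753), Myh10 (r = 0.725, rho = 0.642), Atp2b4 (r = 0.719, rho = 0.702), and Vcan (r = 0.703, rho = 0.644), while Sparc had r = 0.342 (rho = 0.441).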

How the data were processed

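The authors prepared QuantSeq 3′ mRNA libraries from left ventricular RNA, sequenced them on an Illumina NextSeq, used BlueBee software for alignment, and deposited raw counts per Ensembl gene for each mouse. The submitters' processing notes name GRCm38 and DESeq2 1.22.2. The annotation and counting program are not given in the sources used here. Total counts per mouse were 12559607 to 23331907, and every listed gene had at least 60 counts over the 20 libraries.

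The test was the quasi-likelihood test of edgeR 4.0.16 (R 4.3.3), with 1 model for the 20 mice. Low counts were removed by filterByExpr with the diet as group, leaving 13991 genes, and libraries were scaled with TMM. Adjustment followed Benjamini and Hochberg over all genes tested. Genes were called if the adjusted p was under 0.01 and the normalized count averaged over 50, as in the study. Standard errors came from the F statistic, and 95% intervals used 16 residual degrees of freedom. P-values measure the spread between separate mice.

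The members and lists were chosen with earlier results of these data known. Named genes are the 10 members, for each list the 4 or fewer genes with the smallest p in HF + LP against LP, any gene called, and the 5 genes most correlated with Fstl1. Of these, 1 gene is not reported here. Gene symbols were matched for 15917 genes through GENCODE M21 by Ensembl identifier. No 2 libraries of a group had the same counts within sampling noise. The scripts were tested on simulated data. Alternatives were RLE size factors, scaling without mitochondrial genes, DESeq2 1.42.0, no low count filter, an adjusted p under 0.05, no mean minimum, only the groups compared, the animal number as a replicate block, the library number as a covariate, and each mouse left out.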

Additional observations from a re-analysis of the deposited data

Results flagged for a closer look

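In 5 of the 40 combinations of member and diet group, 1 mouse lay far from the other 4 by Dixon's criterion (gap to range above 0.71), which chance gives in about 5% of groups. The normalized count of Fbn1 in LP mouse 5 was 448.3, in the only library whose label adds a sample number. That of Lox in LP mouse 13 was 90.57, in the library that correlated least with its group. Thbs1 reached 39.94 in HF + LP mouse 3, Tnc 72.47 in LP mouse 20, and Spp1 13.81 in HF mouse 5.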

How the results depend on the processing

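Outside HF against NP and the interaction, no member was called under any alternative except with DESeq2, where 1 (Fstl1) was called in HF + LP against HF. That comparison shares the HF mice on which Fstl1 was chosen, so the call is not an independent test. The Fstl1 log2 fold change there was -0.69 to -0.53 with each mouse left out and -0.66 to -0.57 under the other alternatives, with adjusted p from 0.00168 to 0.475. All 8 members kept a negative value there under all alternatives, and all 8 a positive one in HF against NP. In LP against NP, 16 of 224 values had the other sign.

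Over all genes, DESeq2 called 84 in HF + LP against LP (14 with edgeR), 16 in HF + LP against HF (0), 4 in LP against NP (0), 163 in HF against NP (37), and 1 for the interaction (0). With edgeR at an adjusted p under 0.05, 45 genes were called in HF + LP against LP and 157 in HF against NP. With only the groups compared in the model, the counts were 0 and 61. The library number as a covariate gave 5 in HF + LP against LP. Without the mice with high atrial markers, which was chosen after seeing the data, 2 were called in HF + LP against LP and 18 in HF + LP against HF. Leaving out 1 mouse gave 1 to 16 in HF + LP against LP, with 15 of 20 mice lowering the count by over 1.5 times, 0 to 1 in HF + LP against HF (1 without HF mouse 1), and 20 to 69 in HF against NP (69 without LP mouse 13, and 20 to 24 without NP mice 5, 6, or 8 or HF mice 4 or 5). The cause was not tested.

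The animal numbers do not pair the mice, which are different animals: over the 5 same-numbered HF and HF + LP mice, correlations of deviations from the group means ran from -0.553 to 0.476. With the replicate block, 0 genes were called in HF + LP against LP and 2 in HF against NP. The Fn1 and Fbn1 values in HF + LP against LP became 0.18 and -0.08, and the Fn1 interaction 0.02.

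Tnc and Spp1 were tested only without the filter on low counts, and Lox and Thbs1 lay under the mean that a call required.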
